A study of Homo sapiens with 6 samples.

Results

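The genes described here make or load major histocompatibility complex (MHC) class I molecules. They are the heavy chain genes HLA-B, HLA-C, HLA-E and HLA-F, the light chain gene B2M, the peptide transporter genes TAP1 and TAP2, the loading factor gene TAPBP and the transcriptional activator gene NLRC5. All 9 were found by gene name among the 57169 gene names of the deposited table, on 102 of its 222615 transcript rows, and counts were summed per name. The 6 RNA-seq libraries came from cells labelled CCRF-SB, a lymphoblast-like line, and titled B-ALL cells, collected on day 5 in medium with serum. The 3 siANXA1 libraries, with the genotype label ANXA1 down-regulated, came from cells infected with a lentiviral vector carrying a silencing RNA against ANXA1. The 3 siControl libraries, with the genotype label WT, came from cells given the empty vector. Puromycin selection is described for the silenced lines, and the labels name neither clones, the promoter of the vector nor separate cultures. P-values therefore measure the spread between these libraries, which may be technical.

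Class I molecules show peptides from inside the cell to cytotoxic T cells and natural killer cells. A polymorphic heavy chain pairs with beta-2-microglobulin in the endoplasmic reticulum, where the TAP1 and TAP2 transporter brings in peptides from the proteasome and tapasin, encoded by TAPBP, holds the empty molecule at the transporter. HLA-E mostly shows leader peptides of other class I chains to natural killer cell receptors, and NLRC5 switches on class I genes through a shared promoter module of X and Y boxes, next to binding sites for interferon and NF-kB factors in many of them.

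Heavy chain RNA was almost all HLA-E, while HLA-B, HLA-C and HLA-F lay near or below 1 CPM (counts over library size, per 1000000, with TMM scaling) in every library. B2M was abundant, TAP2 was moderate, and TAP1, TAPBP and above all NLRC5 were low. The proximal promoters of 3 of the heavy chain genes and of B2M are printed here. These genes share some kinds of promoter letters, though not all, and stood far apart in that range. Each is the 250 bases before the gene start from RefSeq on GRCh38.p14, written 5′ to 3′ in the direction of the gene. Capitals mark matches on either strand to 4 motifs. These are an interferon response element core, GAAANNGAA, and an NF-kB pattern, GGGNNTTCC. The others are the inverted CCAAT or Y box ATTGG, and TGACG, the core of the cAMP response element or X2 box. Neighbouring or overlapping matches run together.

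HLA-B, chr6:31357180-31357429, minus strand: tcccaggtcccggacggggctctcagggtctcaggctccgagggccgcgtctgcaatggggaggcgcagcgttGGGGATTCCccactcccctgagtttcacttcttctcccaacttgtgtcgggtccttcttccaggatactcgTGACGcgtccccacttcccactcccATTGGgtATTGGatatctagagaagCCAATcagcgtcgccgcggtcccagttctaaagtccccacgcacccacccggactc
HLA-C, chr6:31272093-31272342, minus strand: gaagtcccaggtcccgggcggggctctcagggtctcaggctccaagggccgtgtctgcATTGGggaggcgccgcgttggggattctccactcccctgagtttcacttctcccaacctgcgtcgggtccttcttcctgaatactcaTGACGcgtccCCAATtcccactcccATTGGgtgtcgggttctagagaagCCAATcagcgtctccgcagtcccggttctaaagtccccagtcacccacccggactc
HLA-F, chr6:29723184-29723433, plus strand: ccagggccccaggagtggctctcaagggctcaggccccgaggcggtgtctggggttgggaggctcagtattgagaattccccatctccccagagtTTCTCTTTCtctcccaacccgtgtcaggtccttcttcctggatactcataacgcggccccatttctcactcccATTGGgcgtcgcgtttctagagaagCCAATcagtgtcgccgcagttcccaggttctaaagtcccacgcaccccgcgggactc
B2M, chr15:44711267-44711516, plus strand: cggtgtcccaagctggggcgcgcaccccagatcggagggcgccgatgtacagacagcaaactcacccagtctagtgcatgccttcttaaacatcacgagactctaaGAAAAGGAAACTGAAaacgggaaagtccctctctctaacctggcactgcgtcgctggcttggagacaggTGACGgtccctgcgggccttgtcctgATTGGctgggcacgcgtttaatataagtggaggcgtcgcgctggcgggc

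Of the 9 genes, 7 had a promoter in the RefSeq table, which holds 35116; HLA-E and NLRC5 did not match. TAP1 had 2, of which 1 held none of the motifs, so that shares are given over 8 promoters. The Y box letters were found in 5 of the 8, of HLA-B, HLA-C, HLA-F, B2M and TAP1, against 32.0% of all promoters in the table. TGACG was found in 4 of 8, of HLA-B, HLA-C, B2M and TAP2, against 21.2% of all. The interferon core was found in 5 of 8, of HLA-F, B2M, TAP1, TAP2 and TAPBP, against 6.88%, and the NF-kB letters in 2 of 8, of HLA-B and TAPBP, against 5.78%. These matches describe letters of the reference and not sites in use. Each motif is a fixed pattern, so a promoter without a match may hold the same kind of element in another spelling.

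Before the members are described, the libraries need a word. Counts with a gene name totalled 21333951 to 44148505 in siANXA1 libraries and 34758946 to 41012577 in siControl libraries, so that 3 counts, the limit a count of 0 allows, were worth 0.0690 to 0.137 CPM in siANXA1 and 0.0718 to 0.0898 CPM in siControl. ANXA1 itself read 1606, 1723 and 1712 CPM in siANXA1 and 3697, 3695 and 3755 CPM in siControl (log2 fold change -1.14 ± 0.093 SE, edgeR adjusted p = 0.0569). The first principal component of all genes tested, with 40.0% of the variance, crossed the groups. It gave positive scores to siANXA1 replicate 2 (44.7) and siControl replicates 1 and 2 (63.1 and 62.8), and negative scores to siANXA1 replicates 1 and 3 (-56.6 and -59.1) and siControl replicate 3 (-55.0). On the second component, with 23.3% of the variance, siANXA1 replicate 2 stood apart at -89.7, while the other libraries ran from -7.98 to 41.8. That library, the only siANXA1 library with a positive score on the first component, also had the lowest total, 21333951 counts. The B cell label was not borne out by its markers: of 19 B cell markers, 14 averaged under 1 CPM and 5, including IGHM and IGKC, were at 0 counts in all libraries. CD79A and PAX5 were at most 0.685 and 0.230 CPM. Of the 14 erythroid markers, 13 averaged 1 CPM or more, and their summed level was 4020 to 6029 CPM in siANXA1 and 768 to 1851 CPM in siControl. Summed levels of the other lists were 15.5 to 26.2 CPM in siANXA1 and 11.4 to 38.4 CPM in siControl for T cells, and 1.54 to 2.60 CPM in siANXA1 and 4.97 to 5.91 CPM in siControl for natural killer cells. Monocyte and macrophage markers summed to 86.5 to 101 CPM in siANXA1 and 74.8 to 104 CPM in siControl, granulocyte markers to 0.901 to 3.84 CPM in siANXA1 and 2.67 to 9.74 CPM in siControl, and dendritic cell markers to at most 0.109 CPM in siANXA1 and 0.0992 CPM in siControl. Megakaryocyte markers summed to 5.60 to 10.4 CPM in siANXA1 and 7.22 to 18.4 CPM in siControl, and fibroblast and epithelial markers to 577 to 770.1 CPM in siANXA1 and 656 to 681 CPM in siControl. In bulk RNA, fewer cells of a type and less RNA per cell cannot be told apart.

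HLA-B, on chromosome 6 from 31269491 to 31357188 on the minus strand (GRCh38), encodes a classical heavy chain that presents to T cells. It held 5, 7 and 9 counts in siANXA1 replicates 1 to 3, or 0.115, 0.320 and 0.246 CPM, and 23, 11 and 13 counts in siControl replicates 1 to 3, or 0.551, 0.273 and 0.389 CPM. The groups overlapped, and even the highest library, siControl replicate 1, had an exact Poisson interval (counting error only, 95%) of 0.349 to 0.826 CPM. HLA-C, the other classical gene in the set, lies from 31268749 to 31272130 on the same strand and is a main ligand of killer cell immunoglobulin-like receptors. It held 7, 28 and 12 counts in siANXA1 and 42, 49 and 14 counts in siControl, which came to 0.161, 1.28 and 0.328 CPM and to 1.01, 1.21 and 0.419 CPM. The 3 higher HLA-C libraries were those with positive scores on the first principal component, and the groups overlapped. Its highest siANXA1 library, replicate 2, had an interval of 0.850 to 1.85 CPM and its lowest, replicate 1, one of 0.0647 to 0.332 CPM, so the spread within siANXA1 exceeded the counting error. Of all HLA-C counts, 90.1% were assigned to retained intron forms and 6.58% to a protein coding form, while HLA-B had 39.7% on protein coding forms. Class I genes differ between people, and the part that alleles unlike the reference sequence have in these low counts was not tested.

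HLA-F, at 29722775 to 29738528 on the plus strand, encodes a non-classical heavy chain seen by natural killer cell receptors. It held 10, 6 and 10 counts in siANXA1 and 8, 9 and 6 counts in siControl, or 0.230, 0.274 and 0.273 CPM and 0.191, 0.223 and 0.180 CPM. In CPM the siANXA1 libraries were all above the siControl libraries (exact permutation test, two-sided p = 0.1, the smallest that 3 against 3 allow), but the Poisson intervals of every pair of libraries overlapped. Such intervals are not a test between the groups, and with 6 to 10 counts per library a difference in HLA-F was not settled either way. Scaled by transcript length (TPM, explained below), the groups overlapped, at 0.250, 0.407 and 0.325 in siANXA1 and 0.291, 0.329 and 0.312 in siControl. HLA-F did not pass the filter on low counts, and neither did NLRC5, from 56989485 to 57083531 on the plus strand of chromosome 16. NLRC5 held 7, 4 and 6 counts in siANXA1 and 10, 14 and 0 counts in siControl, or 0.161, 0.183 and 0.164 CPM and 0.239, 0.347 and 0 CPM. The 0 in siControl replicate 3 allowed up to 0.0898 CPM by the limit of 3 counts, and up to 0.110 CPM by the exact 95% Poisson interval. No library held more than 14 counts of the activator.

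HLA-E, at 30489467 to 30494205 on the plus strand of chromosome 6, was the abundant heavy chain gene, with 2137 to 6202 counts per library. It read 67.4, 122 and 70.1 CPM in siANXA1 replicates 1 to 3 and 148, 136 and 64.0 CPM in siControl replicates 1 to 3. siANXA1 replicate 2 lay with siControl replicates 1 and 2, and siControl replicate 3 lay with siANXA1 replicates 1 and 3. The coding form ENST00000376630 carried 96.9% of its counts. Per transcript length, as TPM (length-scaled counts, set to the same sum in every library), HLA-E made up 97.5% to 98.9% of the RNA of the 4 heavy chain genes in siANXA1 libraries and 96.7% to 97.9% in siControl libraries. In each library the other 3 heavy chain genes together made up the small remainder.

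B2M encodes the light chain that every class I molecule needs, and lies at 44711487 to 44718877 on the plus strand of chromosome 15. It read 323, 383 and 324 CPM in siANXA1 replicates 1 to 3 and 437, 461 and 378 CPM in siControl replicates 1 to 3. The groups overlapped by a narrow margin, through siANXA1 replicate 2 and siControl replicate 3. In TPM, B2M exceeded the 4 heavy chain genes together 7.63- to 11.7-fold in siANXA1 and 7.45- to 14.4-fold in siControl. The transporter genes were unequal. TAP1, at 32845209 to 32853978 on the minus strand of chromosome 6, held 102, 81 and 93 counts in siANXA1 and 265, 184 and 53 counts in siControl. These came to 2.35, 3.70 and 2.54 CPM in siANXA1 and to 6.34, 4.56 and 1.59 CPM in siControl, with siControl replicate 3 the lowest of the 6. TAP2, at 32821833 to 32838780 on the minus strand, was steadier, with 74.7, 80.7 and 73.2 CPM in siANXA1 and 86.3, 77.4 and 81.8 CPM in siControl. In TPM, TAP2 exceeded TAP1 11.7- to 20.9-fold in siANXA1 and 9.83- to 26.2-fold in siControl. Their proteins work as a heterodimer. TAPBP, at 33299694 to 33314387 on the minus strand, read 6.99, 9.04 and 5.73 CPM in siANXA1 and 8.35, 5.03 and 5.03 CPM in siControl, and 52.8% of its counts were on retained intron forms.

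**Figure D1:**
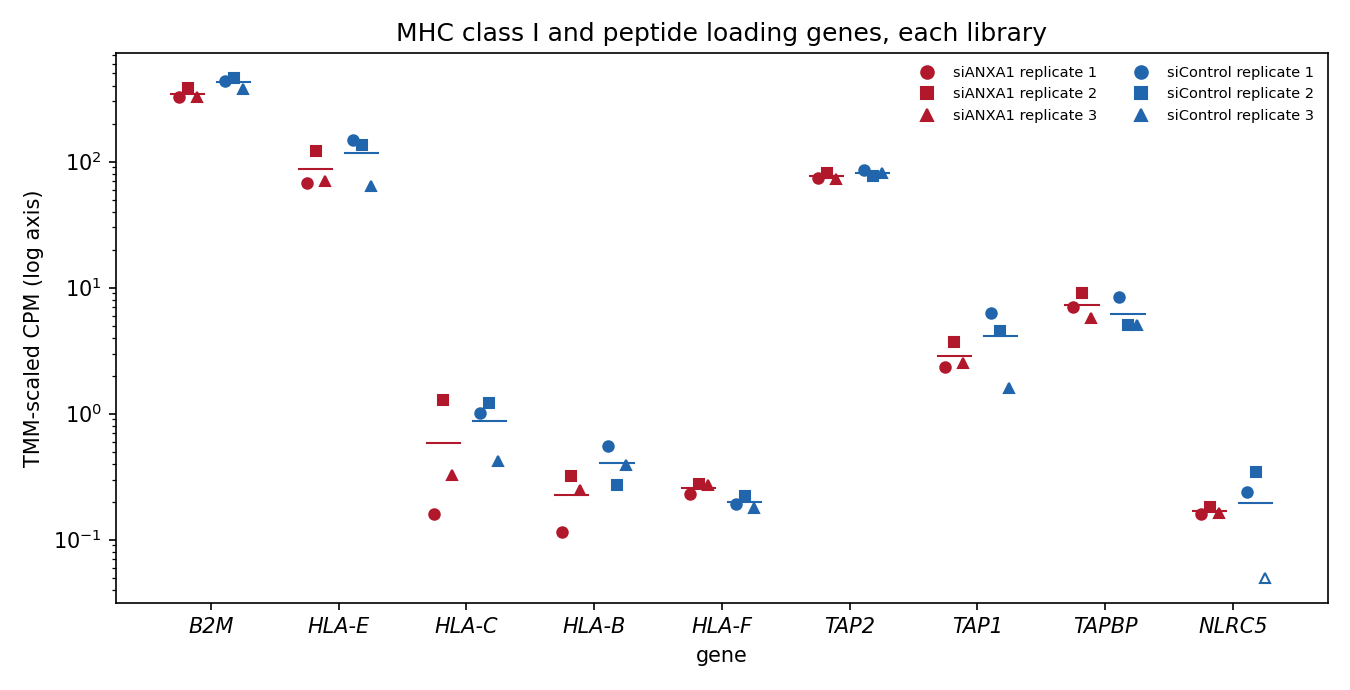
TMM-scaled CPM of each of the 9 genes in each library on a log axis (points, with a bar at the mean of each group); the count of 0 of NLRC5 in siControl replicate 3 is an open symbol placed under the others. B2M, HLA-E and TAP2 lie above 60 CPM in all libraries, and HLA-B, HLA-C, HLA-F and NLRC5 lie at or below 1.28 CPM.

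Ordered by mean TPM over the 6 libraries, B2M stood at 706, HLA-E at 74.0, TAP2 at 31.0, TAPBP at 6.26, TAP1 at 2.26, HLA-C at 0.925, HLA-B at 0.523, HLA-F at 0.319 and NLRC5 at 0.0979. The first 5 places were the same in every library. Below them, HLA-C, HLA-B and HLA-F changed places between libraries and their ranges overlapped, and NLRC5 was last in all but siControl replicate 2, where HLA-F was. Set against 19936 protein coding genes by mean TPM, B2M exceeded 99.2% of them, HLA-E 89.3% and TAP2 77.3%, while TAPBP exceeded 54.5%, TAP1 46.7%, HLA-C 42.2%, HLA-B 39.3%, HLA-F 37.0% and NLRC5 30.6%.

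Between the groups, none of the 7 genes that passed the filter was called by edgeR's quasi-likelihood test at an adjusted p under 0.05, where 0.0112% of the 17916 genes tested were called. At an unadjusted p under 0.05 the count was 0 of 7, against 7.92% of all genes tested. With limma-voom 0 members were called, beside 3 of all 17916 genes tested. DESeq2 called 0 members, beside 162 of all 34193 genes tested, but gave no adjusted p for HLA-B, HLA-F and NLRC5. The groups did not overlap in 0 of the 7, against 14.7% of all genes. Of the 7, 6 had a negative log2 fold change, against 49.5% of all genes tested. The median of the 7 was -0.42, beside a median of 0.01 over all genes tested. Over the alternatives described below, which did not all test the same members, the members' median ran from -0.75 to -0.08. The first came without siANXA1 replicate 2, the second with the side of the first principal component in the model.

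B2M averaged 343 ± 34.5 CPM in siANXA1 and 425 ± 42.8 CPM in siControl (SD, n = 3 each), and edgeR estimated the log2 fold change at -0.31 ± 0.14 (SE, adjusted p = 0.64). Within the positive side of the first principal component it read 383 CPM in siANXA1 against 437 and 461 CPM in siControl, and within the negative side 323 and 324 CPM in siANXA1 against 378 CPM in siControl, lower in siANXA1 on both. The erythroid marker sums did not overlap between the groups and were higher in siANXA1, by a narrow margin without the embryonic globin gene HBE1 (1880 to 2743 CPM in siANXA1 and 764 to 1841 CPM in siControl), and their part in the B2M values was not tested. HLA-E averaged 86.6 ± 31.0 CPM in siANXA1 and 116 ± 45.6 CPM in siControl (log2 fold change -0.42 ± 0.39, adjusted p = 0.779). TAP1 averaged 2.86 ± 0.732 CPM in siANXA1 and 4.16 ± 2.40 CPM in siControl (-0.55 ± 0.52, adjusted p = 0.784). For neither gene was the sign the same on both sides: on the positive side siANXA1 replicate 2 was below both siControl libraries, and on the negative side both siANXA1 libraries were above siControl replicate 3. When the side was added to the edgeR model, an alternative added with the values already known, it gave HLA-E a log2 fold change of -0.06 (adjusted p = 0.844) and TAP1 one of 0.02 (adjusted p = 0.984). The same model gave B2M -0.23 (edgeR adjusted p = 0.274), HLA-B -0.75 (0.593), HLA-C -0.23 (0.836), TAP2 -0.08 (0.71) and TAPBP 0.39 (0.548).

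HLA-B and HLA-C had the largest fitted changes and the widest errors, -0.87 ± 0.56 (edgeR adjusted p = 0.696) and -0.64 ± 0.82 (adjusted p = 0.824). TAP2 averaged 76.2 ± 3.93 CPM in siANXA1 and 81.8 ± 4.44 CPM in siControl, with the tightest estimate of the set, -0.10 ± 0.14 (adjusted p = 0.828). TAPBP was the one gene with a positive value, 0.24 ± 0.32 (adjusted p = 0.829), at 7.26 ± 1.67 CPM in siANXA1 and 6.14 ± 1.92 CPM in siControl. A p that misses the threshold does not show that these levels were equal.

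**Figure D2:**
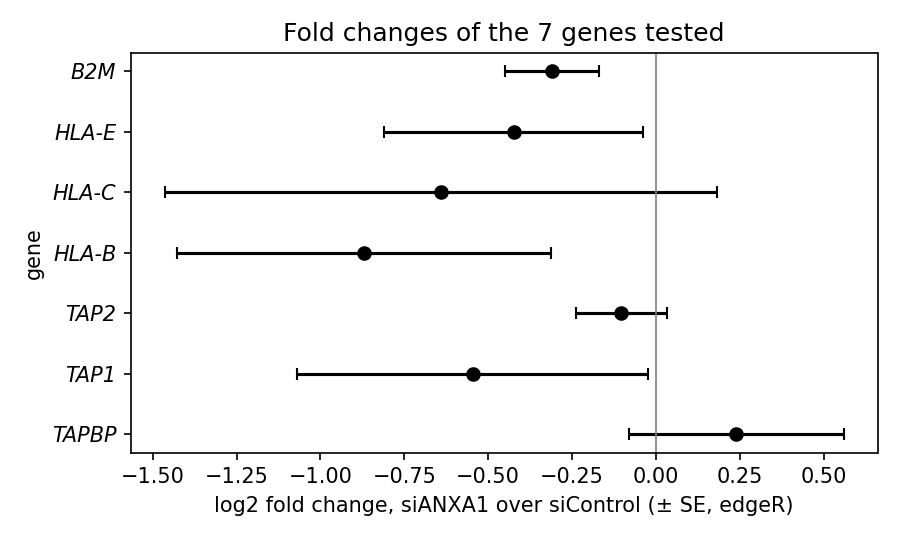
Log2 fold change of siANXA1 over siControl for the 7 genes that passed the filter, with bars of 1 SE from edgeR (3 libraries per group). The value for B2M is -0.31 and that for TAP2 -0.10, and the bars of HLA-B and HLA-C are the longest.

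The larger differences ran along the first principal component. In 4 of the 7 tested genes, HLA-E, HLA-C, TAP1 and B2M, all 3 libraries with a positive score were above all 3 with a negative score, as they were in 19.7% of all genes tested. HLA-E read 122 to 148 CPM on the positive side and 64.0 to 70.1 CPM on the negative side. TAP1 read 3.70 to 6.34 CPM and 1.59 to 2.54 CPM on the same sides, HLA-C 1.01 to 1.28 CPM and 0.161 to 0.419 CPM, and B2M 383 to 461 CPM and 323 to 378 CPM. TAP2, TAPBP and HLA-B overlapped between the sides. DDIT4, whose product restrains mTOR under stress, read 1435 to 2282 CPM on the positive and 109 to 189 CPM on the negative side. The component was computed from all genes tested, these included, so the values describe the libraries and carry no test.

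**Figure D3:**
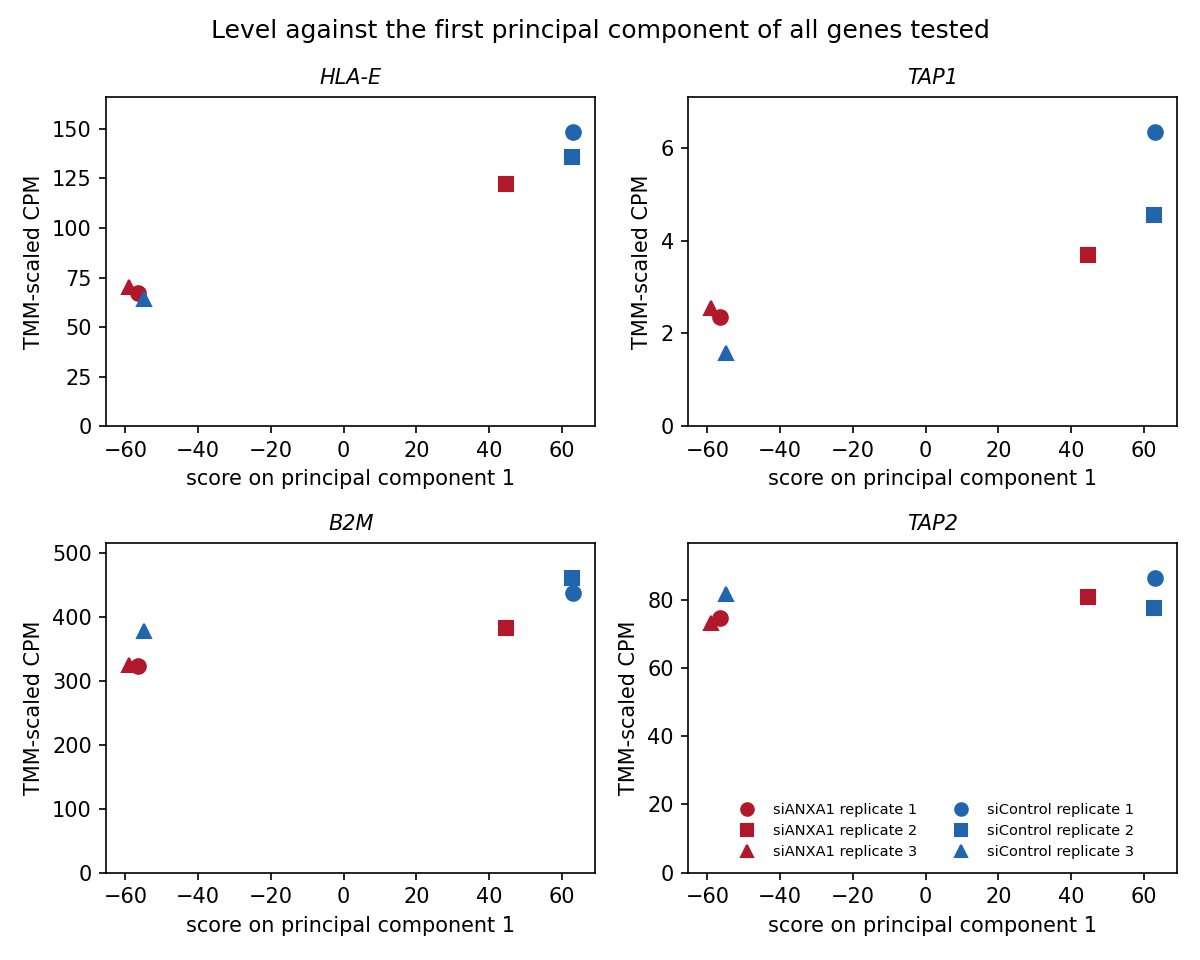
TMM-scaled CPM of HLA-E, TAP1, B2M and TAP2 against each library's score on the first principal component of all genes tested, with siANXA1 in red and siControl in blue. HLA-E separates into 122 to 148 CPM at positive and 64.0 to 70.1 CPM at negative scores, while TAP2 spans 73.2 to 86.3 CPM with both sides mixed.

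Likeness was measured as Pearson's r of log2 CPM over the 6 libraries, among 10678 genes with a mean of 5 CPM or more. Closest to HLA-E were DDIT3, which encodes the stress transcription factor CHOP (r = 0.998), SFI1, a centrosomal protein gene (0.998), and FLYWCH2 (0.997). DDIT3 read 23.2, 77.5 and 26.3 CPM in siANXA1 and 101, 95.4 and 19.9 CPM in siControl, the same division as HLA-E. With libraries on 2 sides of the first principal component such values mostly measure that division, and 956 genes had an r over 0.9 with HLA-E. B2M was closest to KIAA1841 (r = 0.998), SNAPC1, a subunit of the small nuclear RNA activating complex (0.996), and TXNRD3, a thioredoxin reductase gene (0.996), with 699 genes over 0.9. TAP2 was closest to MIEF2 (r = 0.984), STOML1 (0.980) and AGAP9 (0.977), and TAPBP to AZI2 (0.992) and EXTL2 (0.977), each with 39 genes over 0.9.

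The steady TAP2 sum hid large shifts among its coding transcripts. ENST00000374899, which ends farther downstream at 32821833, held 906, 30 and 36 counts in siANXA1 replicates 1 to 3 and 884, 712 and 26 counts in siControl replicates 1 to 3. It made up 27.9%, 1.70% and 1.34% of TAP2 in siANXA1 and 24.5%, 22.8% and 0.952% in siControl. siANXA1 replicate 1 therefore grouped with siControl replicates 1 and 2, a division unlike both the groups and the first principal component. ENST00000374897, the form with the most counts, made up 28.8%, 90.4% and 72.3% in siANXA1 and 33.0%, 35.3% and 75.2% in siControl. These are estimated shares of overlapping transcripts, and 35.8% of the 50-base stretches of ENST00000374897 also occur in transcripts of AL669918.1, an annotated gene that held 7 to 92 counts in siANXA1 and 42 to 110 in siControl. Of the other members, B2M and NLRC5 shared 0% of such stretches with another gene, TAP1 shared 1.07%, TAPBP 6.09%, and HLA-B, HLA-C, HLA-E and HLA-F shared 2.54%, 6.71%, 5.13% and 1.70%, counted on the coding transcript with the most counts of each gene. For HLA-C and TAPBP that transcript held 6.58% and 19.1% of the counts, so these shares do not describe the forms that carried most of them. The annotated span of the HLA-B gene covers 2640 bases of HLA-C on the same strand. All HLA-B transcripts with counts lay outside the HLA-C gene, however, so no HLA-B count was assigned to a form that overlaps it. Whether reads of HLA-B and HLA-C were assigned to the wrong gene was not tested. All 8770 bases of TAP1 lie within PSMB9 on the opposite strand, so that pair is uncertain if the counting did not use strand.

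**Figure D4:**
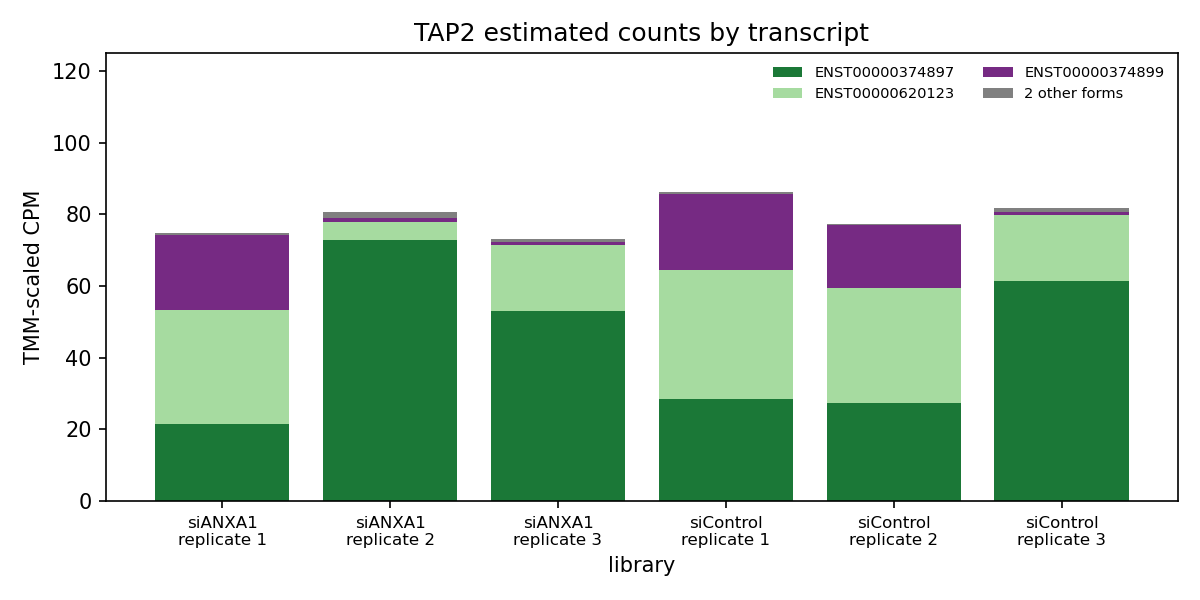
TAP2 estimated counts per library as TMM-scaled CPM, stacked by transcript, with siANXA1 on the left and siControl on the right. The sum stays between 73.2 and 86.3 CPM while ENST00000374899 makes up between 0.952% and 27.9% of it.

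The rest of the pathway was read from lists of related genes. None of these lists had a gene past the edgeR threshold in either direction, so the examples are values only. Among 12 peptide loading and trimming genes, all tested, 6 had a positive and 6 a negative value (median 0.06). CALR, encoding the chaperone calreticulin of the loading complex, read 2957, 2391 and 2933 CPM in siANXA1 and 1400, 1391 and 2309 CPM in siControl (log2 fold change 0.70 ± 0.23, edgeR adjusted p = 0.607). The groups did not overlap for CALR, nor for ERAP1, the aminopeptidase that trims peptides, which read 38.1, 32.5 and 57.8 CPM in siANXA1 and 72.7, 74.1 and 66.0 CPM in siControl (-0.73 ± 0.24, adjusted p = 0.607). CANX, encoding the early heavy chain chaperone calnexin, averaged 2133 ± 232 CPM in siANXA1 and 1912 ± 252 CPM in siControl. TMEM129, a ubiquitin ligase gene of endoplasmic reticulum degradation, averaged 23.9 ± 5.96 CPM and 40.4 ± 16.3 CPM in the same order (adjusted p = 0.64).

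Of the 6 immunoproteasome and activator genes, 4 were tested, 2 with a positive and 2 with a negative value. PSMB8 and PSMB9, which encode catalytic subunits induced by interferon, did not pass the filter, at 0.138 to 0.191 CPM and 0 to 0.228 CPM in siANXA1 and 0.0898 to 0.422 CPM and 0.0744 to 0.479 CPM in siControl. PSMB10, the other interferon-induced catalytic subunit gene, was tested and read 19.7, 12.8 and 5.38 CPM in siANXA1 and 8.83, 11.3 and 17.1 CPM in siControl (log2 fold change 0.02 ± 0.50, edgeR adjusted p = 0.99). The constitutive catalytic genes were higher in counts, with PSMB5 at 143 ± 36.0 CPM in siANXA1 and 142 ± 17.1 CPM in siControl. All 3 of those constitutive genes had a positive value (median 0.17), with PSMB6 at 112 ± 10.4 CPM in siANXA1 and 84.3 ± 3.72 CPM in siControl (edgeR adjusted p = 0.615) and PSMB7 at 191 ± 19.0 CPM and 170 ± 13.8 CPM. PSME1, a subunit of the proteasome activator PA28, read 33.0, 33.0 and 28.97 CPM in siANXA1 and 53.4, 47.4 and 40.2 CPM in siControl, without overlap (-0.57 ± 0.18, adjusted p = 0.604). PSME2, its partner, averaged 62.3 ± 5.95 CPM in siANXA1 and 70.0 ± 3.73 CPM in siControl. PSME3, of a related nuclear activator, ran from 85.4 to 309 CPM in siANXA1 and from 5.88 to 285 CPM in siControl.

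Of 17 genes for transcription factors of class I promoters, 16 were tested, with 5 positive and 11 negative values (median -0.22). IRF1, an interferon-induced activator, read 5.11, 8.08 and 6.55 CPM in siANXA1 and 14.8, 12.3 and 7.79 CPM in siControl (-0.82 ± 0.32, edgeR adjusted p = 0.627), overlapping through siANXA1 replicate 2 and siControl replicate 3. STAT2, a subunit of the interferon-activated factor ISGF3, averaged 71.5 ± 18.3 CPM in siANXA1 and 81.8 ± 26.2 CPM in siControl, and CREB1, a binder of cAMP response elements, 12.1 ± 9.38 and 5.65 ± 0.797 CPM. The interferon receptor and kinase genes had 3 positive and 4 negative values of 7 (median -0.01), with JAK1 at 186 ± 11.5 CPM in siANXA1 and 188 ± 31.9 CPM in siControl and JAK2 at 45.2 ± 11.6 and 35.7 ± 17.1 CPM. TYK2, another kinase of the family, averaged 85.9 ± 13.8 CPM in siANXA1 and 83.2 ± 18.1 CPM in siControl, and IFNGR1, a chain of the interferon gamma receptor, 24.1 ± 1.56 and 30.2 ± 7.30 CPM. Components of polycomb repressive complex 2, a chromatin repressor known to silence class I genes in some tumours, had 5 positive and 4 negative values of 9 (median 0.03). EZH2, its methyltransferase, averaged 287 ± 27.2 CPM in siANXA1 and 333 ± 43.7 CPM in siControl (edgeR adjusted p = 0.717). RBBP4, a histone-binding subunit, averaged 322 ± 28.7 CPM in siANXA1 and 328 ± 75.9 CPM in siControl, and MTF2, an accessory subunit, 85.5 ± 24.96 and 72.2 ± 12.1 CPM. Class II genes, presenters of B cells and other professional antigen-presenting cells, were near the floor as well. Of 12 listed, 11 averaged under 1 CPM and 3 were tested, and the highest, HLA-DOB, averaged 2.31 ± 0.384 CPM in siANXA1 and 2.17 ± 0.226 CPM in siControl. HLA-DMA, part of the class II peptide editor, averaged 0.678 ± 0.126 CPM in siANXA1 and 0.684 ± 0.335 CPM in siControl.

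Of 19 other class I and class I-like genes, 10 were tested, with 3 positive and 7 negative values (median -0.27). MR1, which presents vitamin metabolites to mucosal-associated invariant T cells, read 19.5, 28.8 and 20.7 CPM in siANXA1 and 60.6, 39.9 and 19.7 CPM in siControl (-0.80 ± 0.42, edgeR adjusted p = 0.654). Its 3 highest libraries were those with positive scores on the first principal component, as for HLA-E. PROCR, the endothelial protein C receptor gene, averaged 4.32 ± 5.80 CPM in siANXA1 and 2.07 ± 1.34 CPM in siControl, with 11.0 CPM in siANXA1 replicate 2.

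**Figure D5:**
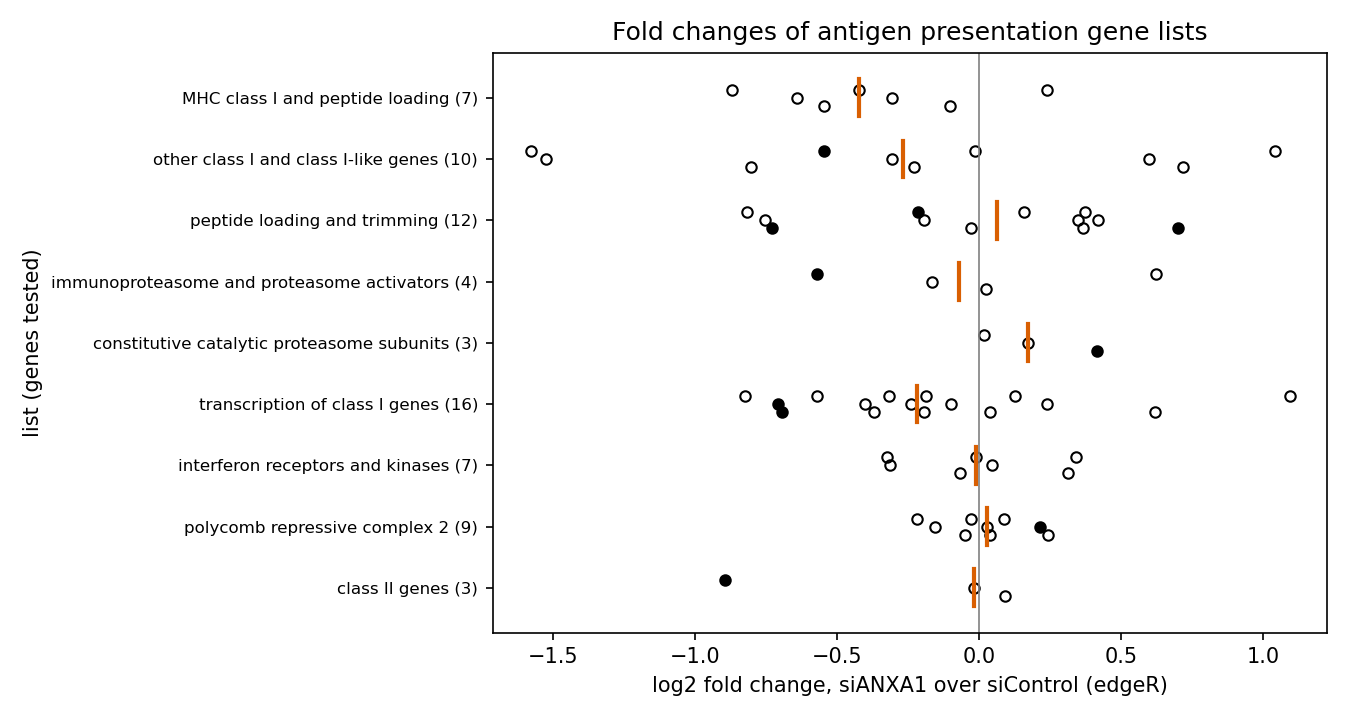
Log2 fold changes of siANXA1 over siControl for the tested genes of each list, 1 circle per gene, filled where the 3 siANXA1 and 3 siControl libraries do not overlap, with the median as an orange bar. No list holds a gene past the threshold, and the class I and peptide loading genes have a median of -0.42.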

How the data were processed

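Values in both tables the authors deposited, one with annotation, are unscaled estimated counts for each transcript, given as whole numbers, and all 1335690 were equal in both. Which aligner, counter and strand option were used is not given in the sources used here. Per the submitters' processing notes the build was mm10, a mouse genome, but all 102 transcripts of the 9 genes had the same start, end and gene in GENCODE release 29 (GRCh38). Transcript lengths, from the deposited table per the file headers, served to compute TPM. Estimated counts rest on reference sequences, and how many reads of other HLA alleles they miss is not known. The 16014 rows without a gene name held 16.9% to 17.7% of the counts and stayed out of library sizes.

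Counts were summed per gene name (57169 names, 34292 with a count) and every gene kept by filterByExpr went into 1 fit of edgeR 4.0.16 under R 4.3.3 (TMM scaling, robust glmQLFit, glmQLFTest, group alone, Benjamini-Hochberg adjustment over 17916 genes, two-sided). CPM are TMM-scaled. Log2 CPM used a prior count of 2. SE is the log2 fold change over the root of its F statistic. The fit was tested on simulated data. Alternatives used DESeq2 1.42.0, limma 3.58.1, other scalings and filters, other gene sets, a replicate block and each library left out. Figures were drawn with matplotlib 3.10.9.

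The genes and lists were chosen with earlier results of these data known. Genes named from each list were those past the threshold or, with none, the 2 with the highest mean CPM and the 2 with the largest change at 1 CPM or more. PSMB8, PSMB9, PSMB10, HBE1, DDIT4, MICA and ULBP3 were named after their values were seen, as were the markers named singly. Some genes that the rule selects are not reported here. Intervals and floors cover counting error only.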

Additional observations from a re-analysis of the deposited data

How the results depend on the processing

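No gene of the set was called in any of the 12 analysis alternatives or 6 fits without a library. Of 122 single-gene values, 119 kept their direction. Of these, 118 stayed outside the threshold, with adjusted p from 0.199 to 0.999, and HLA-B under DESeq2 had no adjusted p. The exceptions in direction were HLA-C (0.14) and TAP2 (0.33) with the most abundant transcript per gene, and TAP1 (0.0206) when the component side was added to the model, an alternative chosen after seeing the data. The cause was not tested. Over all genes the count of calls was 2, and it was 162 with DESeq2, which also tested more genes (34193 against 17916), 1 with protein coding genes alone, 1 with the most abundant transcript, 5 with rows without a gene name included, 5 with the component side as a covariate and 0 with the replicate number as a block. Without 1 library it ran from 0 to 7.

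Log2 fold changes without 1 library ran from -0.39 to -0.26 for B2M, -0.75 to -0.22 for HLA-E, -0.94 to -0.12 for TAP1, -1.16 to -0.52 for HLA-B, -1.85 to -0.16 for HLA-C, -0.15 to -0.07 for TAP2 and 0.06 to 0.52 for TAPBP. The lowest HLA-E, HLA-B and HLA-C values came without siANXA1 replicate 2 and the lowest TAP1 and B2M values without siControl replicate 3. For TAPBP the lowest came without siANXA1 replicate 2 and the highest without siControl replicate 1. Whether replicate numbers pair the libraries was not settled. Deviations of same-numbered libraries correlated at -0.116, 0.263 and 0.256, and those of differently numbered libraries at -0.356 to 0.227. HLA-B, HLA-C, HLA-F and NLRC5 held 49 counts or fewer per library, which limits any statement on them. With the strict filter, 4 genes of the set were tested, and with the most abundant transcript, 6.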

Other observations

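The ligands of the activating natural killer cell receptor NKG2D are relatives of class I chains and were read alongside them. MICB stood at 52.5, 48.7 and 49.7 CPM in siANXA1 replicates 1 to 3 and at 50.1, 53.5 and 49.0 CPM in siControl replicates 1 to 3, one of the narrowest ranges met here (log2 fold change -0.02 ± 0.14, edgeR adjusted p = 0.977). MICA, named after its values were seen, stood at 9.78, 16.5 and 8.41 CPM in siANXA1 and at 9.91, 6.97 and 6.02 CPM in siControl. ULBP1 stood at 0.299, 5.48 and 0.901 CPM in siANXA1 and at 8.69, 8.90 and 1.26 CPM in siControl (-1.52 ± 1.16, adjusted p = 0.74). Its 3 higher libraries were the same as for HLA-E. ULBP3 had 0 counts in all libraries.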
